A study of Mus musculus with 8 samples.

Results

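Collagen genes were followed in the hippocampus of young (3M, age 3 months) and aged (29M, age 29 months) wild type C57BL/6J mice. The members were all probes whose accession led to a mouse gene named Col, a number, the letter a and a number. There were 61 such probes in 42 genes, of 39408 probes and 19742 named genes tested. By the same name rule RefSeq lists 44 collagen genes, and Col6a3 and Col12a1 matched no probe. Each age had 4 arrays, 1 for each of 4 hand-dissected whole hippocampi. All mice were untreated and had aged in their home cages, and according to the methods the aged animals had been bought at an advanced age and kept on before use. The mice of both ages carried no genetic change. Per the study, this cohort was measured to set an array measurement beside sequencing of other animals of these ages.

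Collagens are secreted proteins whose chains wind around each other into a stiff helix. Fibrillar collagens such as types I, II, III, V and XI assemble into the cables that give tissue its strength, whereas type IV forms the sheet-like network of basement membranes. Type VI makes beaded filaments, type VII anchors epithelia to the tissue below, FACIT collagens sit on the surface of fibrils, and transmembrane collagens stay in the membrane of the cell that makes them. Brain tissue holds little fibrillar collagen, and the known sources are the meninges, the walls of vessels and the choroid plexus, where fibroblasts, mural cells, endothelial cells and epithelium lay down matrix.

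The arrays read Cy3 fluorescence at a spot for each probe. Values below are normalized log2 intensities, and changes are 29M minus 3M on that scale with moderated standard errors (SE) from limma. A probe was called where it changed by 0.5 or more in either direction with a Benjamini-Hochberg adjusted p, taken over all probes, under 0.1. Where a gene has several probes, its value is that of the one with the highest mean unless stated. On the 8 arrays, 76.2% to 85.0% of 43020 spots were well above background, with the lowest share on 3M-1 (replicate 1 of 3M), and no spot was saturated. The 7 markers of hippocampal neurons that were looked up, among them Prox1 and Neurod6, were well above background on all 8 arrays. Of the 42 collagen genes, 38 were well above background on all arrays of both ages. Col10a1, Col6a6 and Col28a1 were so on some arrays and Col13a1 on none, and 6 of the 61 probes were not above background on any array. Precision is limited by the 4 arrays per age, and in bulk tissue fewer cells of a type and less RNA per cell cannot be told apart.

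Aging left most collagen transcripts without a call. Col2a1, the chain of cartilage collagen type II, rose, while Col20a1, a FACIT chain, and Col7a1, the chain of anchoring fibrils, fell. The other 39 genes did not pass the test. That is 2.38% of the collagen genes higher and 4.76% lower, beside 1.58% of all genes higher and 0.689% lower (2.26% in either direction). By probes, 1 of 61 was higher (1.64%) and 3 were lower (4.92%), whereas over all probes 1.25% were higher and 0.809% lower, 2.06% in all. With so few calls these shares rest on 3 genes.

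The promoter windows of the called genes are shown because all 3 changes are changes of transcript level. RefSeq promoter sequences of GRCm38.p6 were at hand for Col20a1 and Col7a1, and the 250 bases before the listed start are printed 5′ to 3′ on the coding strand, with matches on either strand in capitals. The letters searched were CCAAT for the CCAAT box, then GGGCGG for the GC box, and TATAAA for the TATA box. No 2 matches overlapped. The Col7a1 window lies at chr9:108953336-108953585 and the Col20a1 window at chr2:180986285-180986534, both on the plus strand.
Col7a1: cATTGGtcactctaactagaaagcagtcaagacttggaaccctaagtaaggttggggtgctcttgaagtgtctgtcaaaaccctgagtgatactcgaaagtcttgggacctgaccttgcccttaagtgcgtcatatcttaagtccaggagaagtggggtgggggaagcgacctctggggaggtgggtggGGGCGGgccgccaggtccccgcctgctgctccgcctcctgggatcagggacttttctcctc
Col20a1: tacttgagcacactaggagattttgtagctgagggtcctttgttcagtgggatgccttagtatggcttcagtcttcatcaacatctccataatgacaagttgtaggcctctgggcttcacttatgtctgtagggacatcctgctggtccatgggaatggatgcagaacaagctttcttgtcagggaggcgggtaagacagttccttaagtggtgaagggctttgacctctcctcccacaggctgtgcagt
The Col7a1 window held 1 GGGCGG, beginning 61 bases before the start, and 1 CCAAT on the other strand, 249 bases before it. Among 32817 windows of this length in the RefSeq table, 32.7% held GGGCGG, 33.8% held CCAAT and 12.4% held TATAAA on either strand. None of these letters was in the Col20a1 window. The Col20a1 window begins 2962 bases inside the annotated span of the gene, and whether it is the promoter of a transcript in these samples was not tested. By RefSeq, Gm46536 overlaps Col2a1, Gm30797 overlaps Col20a1 and Mir711 overlaps Col7a1, and the probes were not set against these genes here.

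**Figure D1:**
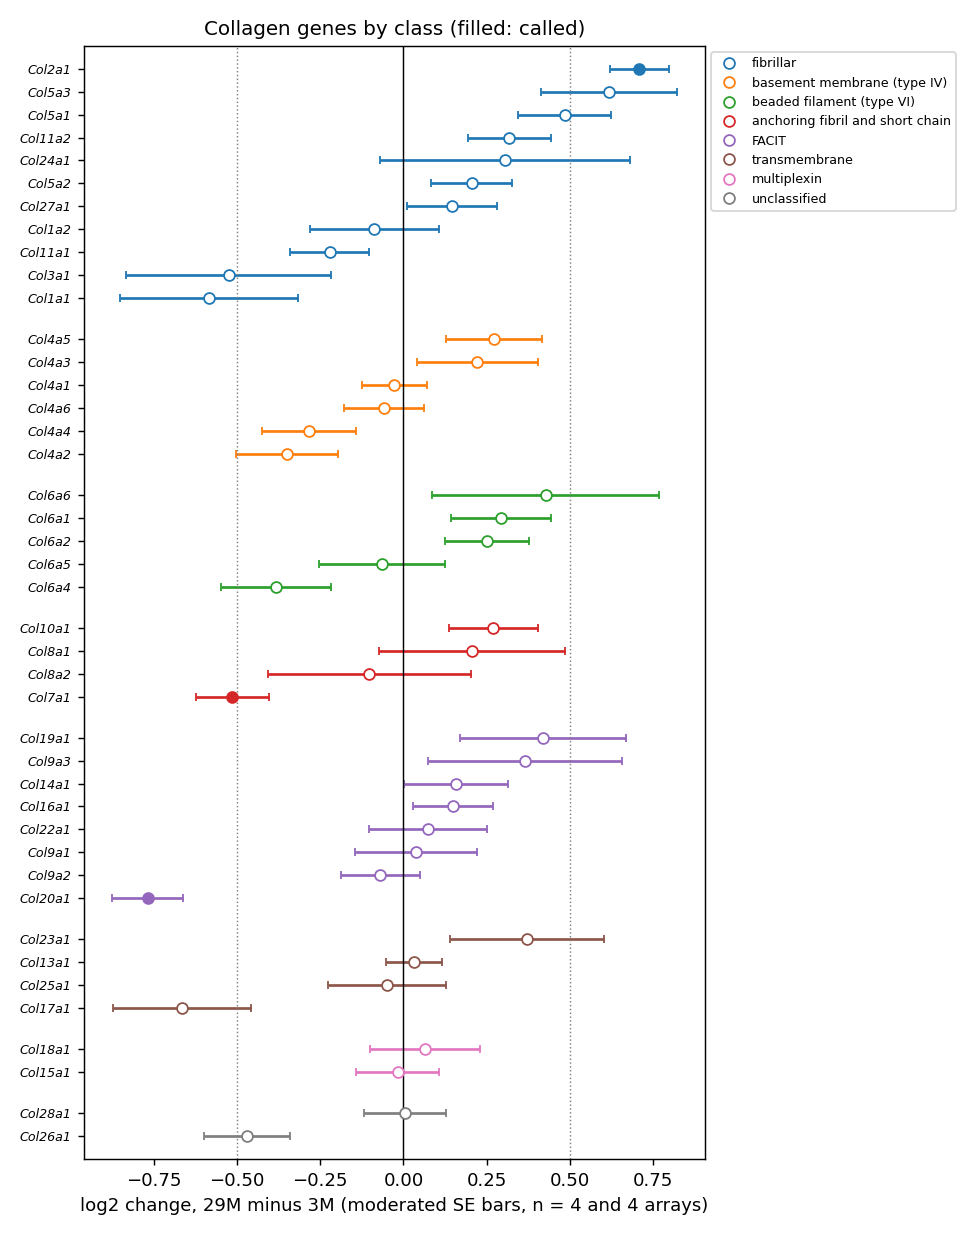
Log2 change (29M minus 3M, horizontal axis) of each of the 42 collagen genes, grouped and coloured by class, with moderated SE bars and 4 arrays per age. Filled points are the called genes, and dotted lines mark a change of 0.5 in either direction. Col2a1 lies to the right, Col20a1 and Col7a1 to the left, and 24 of the 42 genes have a positive value. Col13a1, Col6a6 and Col28a1 were not above background on any 3M array.

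The fibrillar class held the only gene called higher. Col2a1 read 8.91, 8.90, 9.03 and 9.11 on the 3M arrays. On the 29M arrays it read 9.67, 9.83, 9.72 and 9.57. All aged samples were above all young samples, and within each age the readings lay close together (SD 0.10 at either age). The change was 0.71 (SE 0.09, n = 4 and 4), 1.63-fold, with a limma adjusted p of 0.0071. The array has 1 probe for this gene. Within the 3 slides, each of which carried both ages, the change was 0.74, 0.92 and 0.60.

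Type I collagen, the main fibril former of connective tissue, is built from the chains of Col1a1 and Col1a2, and type III from Col3a1 is its usual companion in soft tissue and vessel walls. Col1a1 read 12.38, 12.24, 12.34 and 12.12 in 3M. In 29M it read 11.72, 11.78, 12.40 and 10.84. The young samples lay together, whereas the aged ones spread from the highest to the lowest reading of the 8. The change of -0.58 (SE 0.27, adjusted p = 0.309, limma) did not pass the test.

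Col3a1 read 10.82, 10.79, 10.32 and 10.57 in 3M. The 29M readings were 10.15, 10.22, 10.88 and 9.15. Again the highest and the lowest of the 8 arrays were aged ones, 29M-3 and 29M-4. The change was -0.52 (SE 0.31, limma adjusted p = 0.43).

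Col1a2 read 12.75, 12.81, 12.75 and 12.59 in 3M and 12.69, 12.78, 13.06 and 12.01 in 29M. The groups overlapped, and the change was -0.09 (SE 0.19, limma adjusted p = 0.862). For all 3 chains 29M-4 was the lowest array and 29M-3 the highest. Without 29M-4 the changes were -0.30 for Col1a1, -0.21 for Col3a1 and 0.12 for Col1a2. Without 29M-3 they were -0.82, -0.79 and -0.23 in the same order. None of them was called in either case (limma adjusted p from 0.116 to 0.704).

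Markers of fibroblasts and meninges stood highest on the same array. Of 12 such markers, 9 were highest on 29M-3. Their mean level ranged from 11.70 to 11.93 in 3M and from 11.72 to 12.38 in 29M, with 12.38 on 29M-3 and 11.72 on 29M-4. The lowest level of all arrays was that of 3M-4, on which none of the 3 chains was lowest. On 3M-4, 6 of the 12 markers were lowest, and on 29M-4 only 1 was. All 12 were well above background, 9 had a positive change, none was called, and the median change was 0.23. That median was 0.12 without 29M-3 and 0.32 without 29M-4. Crabp2 passed both thresholds without 29M-4 (0.63) and Dpep1 without 3M-3 (-0.82). The mean level of the 8 pericyte markers was lowest on 29M-4, as were the 3 chains, at 11.26, beside 11.42 to 11.56 on the other arrays. This was not particular to pericytes. The mean levels of the endothelial (11.82), oligodendrocyte precursor (12.61) and hippocampal neuron (12.77) markers were also lowest on 29M-4. The part of any of these cells in the readings of types I and III was not tested.

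**Figure D2:**
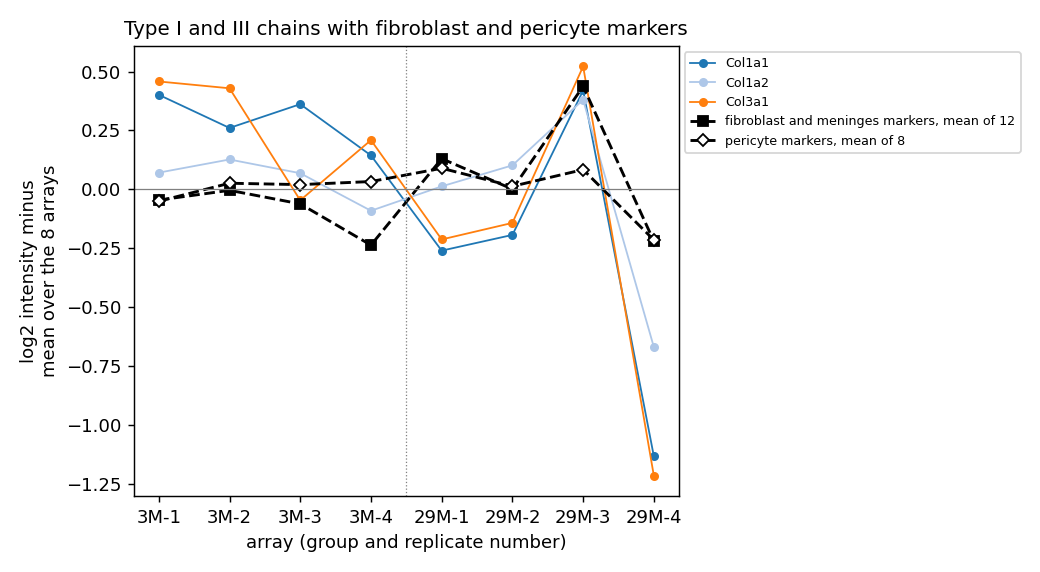
Log2 intensity of Col1a1, Col1a2 and Col3a1 on each array minus the gene's mean over the 8 arrays (vertical axis), with the mean deviation of 12 fibroblast and meninges markers and of 8 pericyte markers. The horizontal axis names the arrays, the dotted line parts 3M from 29M, and the joining lines only guide the eye. All 3 collagen chains and the fibroblast markers peak on 29M-3, and the chains are lowest on 29M-4.

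The type V chains, which start and size type I fibrils, had positive values. Col5a1 lay between 9.72 and 10.35 in 3M and between 10.34 and 10.62 in 29M, with a change of 0.48 (SE 0.14, limma adjusted p = 0.129). On 3M-1 it stood well above the other young samples, and without that array the change was 0.61 with an adjusted p of 0.0254, past both thresholds. Col5a3 ranged from 9.95 to 10.73 in 3M, and the aged arrays reached 11.51, with a change of 0.62 (SE 0.20, limma adjusted p = 0.175). The lowest aged array lay just below the highest young one. Without 29M-4, the highest array, the change was 0.44, and without 3M-4, the highest young one, it was 0.74. No removal of 1 array led to a call, whereas the fit with the replicate number as a block called Col5a3 higher. Col5a2 had a value of 0.21.

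Among the remaining fibrillar genes the values were 0.32 for Col11a2, 0.31 for Col24a1, 0.15 for Col27a1 and -0.22 for Col11a1, none of them called. The value of Col24a1 was 0.01 without 3M-4 and 0.65 without 3M-3, and that of Col27a1 was 0.05 without 29M-3. Over the class of 11 genes the median change was 0.21, with 7 positive values and 4 negative ones. Of the 11 genes 6 were highest on 29M-3, and without that array the median was 0.10. The median of all genes was 0.01. The largest rise of the class was that of Col2a1, and the most negative value was that of Col1a1.

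Type IV collagen, the network of basement membranes around vessels and under the meninges, showed no call. Its chains are encoded in head-to-head pairs, and by RefSeq the genes of the pairs Col4a1 with Col4a2 and Col4a3 with Col4a4 overlap each other, while Col4a6 is the nearest gene to Col4a5. Col4a1 and Col4a2 encode the chains found in nearly all basement membranes. Col4a1 read 12.02, 12.33, 12.22 and 12.32 in 3M and 12.28, 12.25, 12.18 and 12.05 in 29M. The ages overlapped throughout and the change was -0.03 (SE 0.10, limma adjusted p = 0.918), with a 95% interval from -0.25 to 0.19.

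Col4a2 read 12.21, 12.80, 12.77 and 12.67 in 3M. In 29M it read 12.47, 12.26, 12.36 and 11.98. The 3M-1 array was the exception among the young samples, below 3 of the 4 aged ones. The change was -0.35 (SE 0.15, limma adjusted p = 0.288). Without 3M-1 it was -0.48 with an adjusted p of 0.0708, which is short of the fold threshold. The chains of this pair thus had different values, but the difference between them was not tested.

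Col4a3, Col4a4 and Col4a5 encode chains known from the filter of the kidney and other specialised membranes. Col4a3 read 7.55, 8.14, 7.47 and 8.23 in 3M and 8.31, 7.96, 8.04 and 7.97 in 29M, a change of 0.22 (SE 0.18, limma adjusted p = 0.578). Col4a4 read 10.03, 10.01, 9.55 and 10.17 in 3M and 9.64, 9.46, 9.84 and 9.69 in 29M, a change of -0.28 (SE 0.14, limma adjusted p = 0.352). For Col4a3 the arrays 3M-1 and 3M-3 lay below all aged ones and the rest among them, and for Col4a4 the 3M-3 array lay among the aged ones.

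Col4a5 read 9.92, 10.34, 10.01 and 10.43 in 3M and 10.62, 10.55, 10.47 and 10.15 in 29M, a change of 0.27 (SE 0.14, limma adjusted p = 0.38). Col4a6 read 9.86, 10.13 and 9.80 on 3M-1, 3M-3 and 3M-4, and 9.91, 9.72, 9.81 and 10.06 in 29M. Its spot on 3M-2 was marked as an outlier and left out, so the fit used 3 young arrays and gave -0.06 (SE 0.12, limma adjusted p = 0.855). With that spot kept the change was -0.74 (SE 0.56, limma adjusted p = 0.542). A second, dimmer probe of Col4a6 gave 0.20. Over the 6 genes the median was -0.04, with 2 positive and 4 negative values.

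Outside the fibrillar and type IV classes 25 genes were measured, with a median change of 0.04, 15 positive and 10 negative values and 2 calls, both lower. Col20a1 is a FACIT collagen, of the group that decorates fibrils and does not form them, and little is known of it in the brain. Its brighter probe read 9.43, 9.64, 9.82 and 9.63 in 3M. In 29M it read 8.89, 9.04, 8.80 and 8.73. Every aged sample was below every young one. The change was -0.77 (SE 0.11, limma adjusted p = 0.0114), 1.70-fold lower.

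The second Col20a1 probe read 9.34, 9.48, 9.55 and 9.61 in 3M and 8.84, 8.90, 8.90 and 8.51 in 29M. The groups were apart here as well. The change was -0.71 (SE 0.11, limma adjusted p = 0.0193), and within the 3 slides the brighter probe changed by -0.67, -0.60 and -0.84. Both probes match the same gene, so they are repeat measurements of 1 gene in the same samples and not replicates. Oligodendrocyte precursor markers are given beside it as the list with the 1 call among all cell type markers. Their median change was 0.08, with 4 positive and 2 negative values. Of these 6 markers Gpr17, a receptor of precursors that are about to differentiate, fell by 0.99 on the log2 scale (SE 0.21, limma adjusted p = 0.0562), a call lost without replicates 2 or 4 of 3M or 1 or 2 of 29M, while Pdgfra had a change of 0.00 and Cspg4 of 0.16. The mean level of the 6 markers ranged from 12.71 to 12.95 in 3M and from 12.61 to 12.83 in 29M, and all were well above background on every array. The part of these cells in the Col20a1 reading was not tested.

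Col7a1 read 10.84, 10.57, 10.87 and 10.72 in 3M. In 29M it read 10.07, 10.31, 10.12 and 10.43. The groups were apart, by a gap smaller than the range within either age. The change was -0.51 (SE 0.11, limma adjusted p = 0.0561), 1.43-fold lower, which is just past the fold threshold. It was -0.56, -0.26 and -0.72 within the slides. This call was not stable: in 8 of 17 alternative settings it was not made, with changes from -0.58 to -0.46 over all of them. Those settings left out single arrays or fitted slide or replicate as a fixed block. The call was made under each alternative normalization. Col2a1 and both probes of Col20a1 were called in each of the 17.

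**Figure D3:**
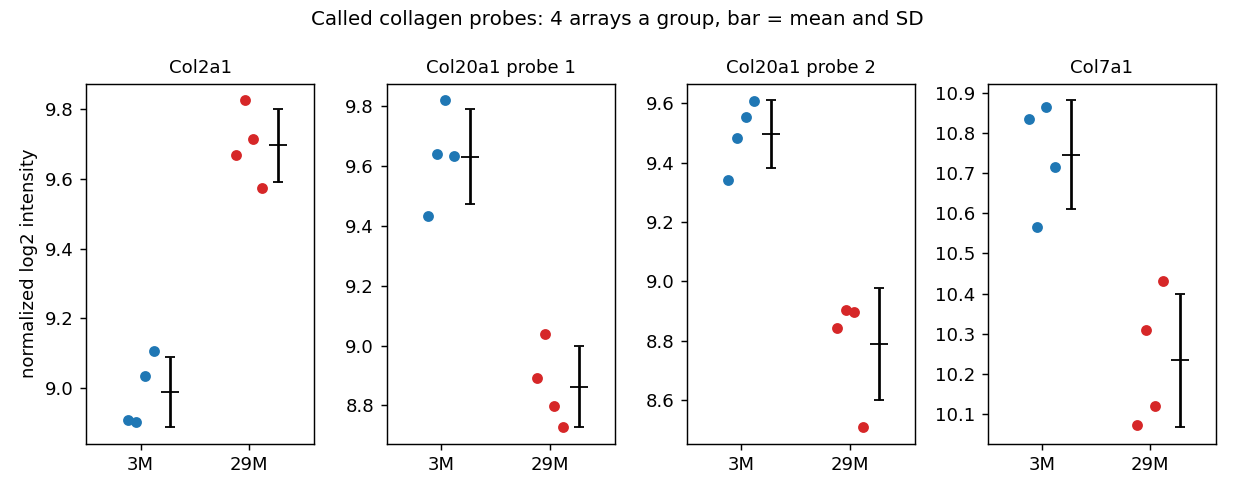
Normalized log2 intensity (vertical axis, its own range for each probe and not starting at 0) of the 4 called collagen probes in 3M and 29M. Points are arrays, 4 for each age, and the bar beside them is the mean with the SD. The ages do not overlap for any of the 4 probes, and the gap is narrowest for Col7a1.

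Groups that do not overlap were found for 5 of the 42 genes (11.9%), beside 11.6% of all genes. By probes it was 7 of 61 (11.5%), beside 11.1% of all probes. The share of collagen genes with separated ages was thus near that of the array as a whole. The 5 genes were Col2a1, Col20a1, Col7a1, Col26a1 and Col6a1. An unadjusted p under 0.05 was reached by 10 collagen genes (23.8%) against 17.1% of all genes. A change of at least 0.5 in size, whatever the p, was seen in 7 (16.7%) against 4.83% of all genes. Those 7 were the 3 called genes together with Col5a3, Col17a1, Col1a1 and Col3a1.

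Col26a1, a short collagen that belongs to no main class, read 11.45, 11.02, 11.37 and 11.08 in 3M. In 29M it read 10.65, 10.60 and 10.78 on replicates 1, 2 and 4, and replicate 3 was also below every young array. The ages did not overlap, and the change was -0.47 (SE 0.13, limma adjusted p = 0.119). It passed both thresholds with slide as a fixed block (-0.52, adjusted p = 0.0841) and without 29M-3 (-0.55, adjusted p = 0.0904). Its fellow in that group, Col28a1, was well above background on 1 aged array and on no young one.

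Col17a1, the transmembrane collagen of epithelial hemidesmosomes, lay between 7.42 and 8.38 in 3M and between 7.23 and 7.58 in 29M. The overlap came from 3M-3, whose 7.42 was among the aged readings while the other young samples read 8.13 to 8.38. The change was -0.66 (SE 0.21, limma adjusted p = 0.156). Without 3M-3 it was -0.88 with an adjusted p of 0.0242, past both thresholds. The most positive value among transmembrane collagens was that of Col23a1, 0.37 (SE 0.23, limma adjusted p = 0.461). Col23a1 read 11.03 on 3M-1 and 9.97 to 10.28 on the other young arrays, and without 3M-1 its change was 0.61 with an adjusted p of 0.0638, past both thresholds. Col25a1, which is made by neurons and is a component of amyloid plaques, had a change of -0.05 (95% interval -0.44 to 0.35).

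Type VI genes had a median of 0.25 over 5 genes, counting Col6a6, which was above background on only 1 array. Without 29M-4 the median was 0.02, which is the value of Col6a6 itself. Without 29M-3 it was 0.13. Col6a1 lay between 12.97 and 13.15 in 3M and between 13.17 and 13.85 in 29M, with a change of 0.29 (SE 0.15, limma adjusted p = 0.365). The ages were apart, but 29M-3 stood far above the other aged samples, and without it the change was 0.13. Col6a2, whose product joins that of Col6a1 in the same filament, had 0.25. The most negative value of the class was that of Col6a4, -0.38, and Col6a5 had -0.06. Col6a6 was above background on 1 aged array and on no young one. Its value of 0.43 is counted in the median but is not read as a change.

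Network-forming type VIII collagen belongs to the membrane under endothelium. Col8a1 had a value of 0.21 (SE 0.28) and Col8a2 one of -0.10 (SE 0.30), neither called. Col10a1, the most positive of the short chain and anchoring class at 0.27, was dim. Among FACIT genes the most positive value was that of Col19a1, 0.42 (SE 0.25, limma adjusted p = 0.434). This rested on 3M-4, which read 7.75 where the other young samples read 8.63 to 9.06, and without it the value was 0.14. The multiplexins of vascular basement membranes, Col15a1 and Col18a1, had -0.02 and 0.06. Dimmer probes of Col15a1 gave -0.24 and -0.27, neither called, and a second probe of Col18a1 gave -0.07. The Col15a1 probe with -0.27 was above background on no array, and the one with -0.24 on 2 young arrays and no aged one. With the processed signal and the 75th percentile, a probe of Col15a1 was called lower.

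Of the 14 genes with more than 1 probe, 9 had probes whose changes differed in sign and 5 had probes of 1 sign. These counts include probes near background, whose sign says little. The dimmer probes of Col6a4 and Col6a5, which differed in sign from the brighter ones, were above background on no array. Each Col6a6 probe, both of 1 sign, was above background on only 1 array. Apart from Col20a1, no further probe of a collagen gene was called. For Col14a1 the brighter probe gave 0.16 and the dimmer one -0.32, with separate groups. The 3 probes of Col25a1 gave -0.05, 0.09 and -0.19. For Col23a1 the changes were 0.37, 0.34 and 0.17, all of 1 sign, but the probe with 0.17 was above background on no array.

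Extreme readings of collagen genes fell on some arrays more often than on others. The array 3M-3 gave the lowest reading of 11 of the 42 genes (26.2%, against 17.8% of all genes) and the highest of 5 (11.9%, against 13.3%). These 11 included both type VIII chains, Col9a3, Col18a1 and Col4a3. Col8a1, for instance, read 9.60 on 3M-3 and 10.78 to 11.02 on the other young arrays. The array 29M-3 gave the highest reading of 14 genes (33.3%, against 11.9% of all genes), 6 of them fibrillar.

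Choroid plexus and ependyma markers were low on 3M-3 as well. All 9 choroid plexus markers were well above background on every array, and 8 of them were lowest on 3M-3. The mean level of the 8 measured on all arrays was 13.46 there, beside 14.19 to 14.65 on the other young arrays and 14.01 to 14.41 on the aged ones. All 5 ependyma markers were lowest on 3M-3, with a mean level of 11.39 beside 12.53 to 13.01 in the other young samples. Without 3M-3 the change of Col8a1 was -0.11, that of Col8a2 -0.42 and that of Col9a3 0.06, none of them called. At the other end, 5 of the 9 choroid plexus markers and all 5 ependyma markers were highest on 3M-4. Without 3M-4 the changes were 0.36, 0.05 and 0.60 in the same order, again without a call. The part of choroid plexus and ependyma in these readings was not tested.

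**Figure D4:**
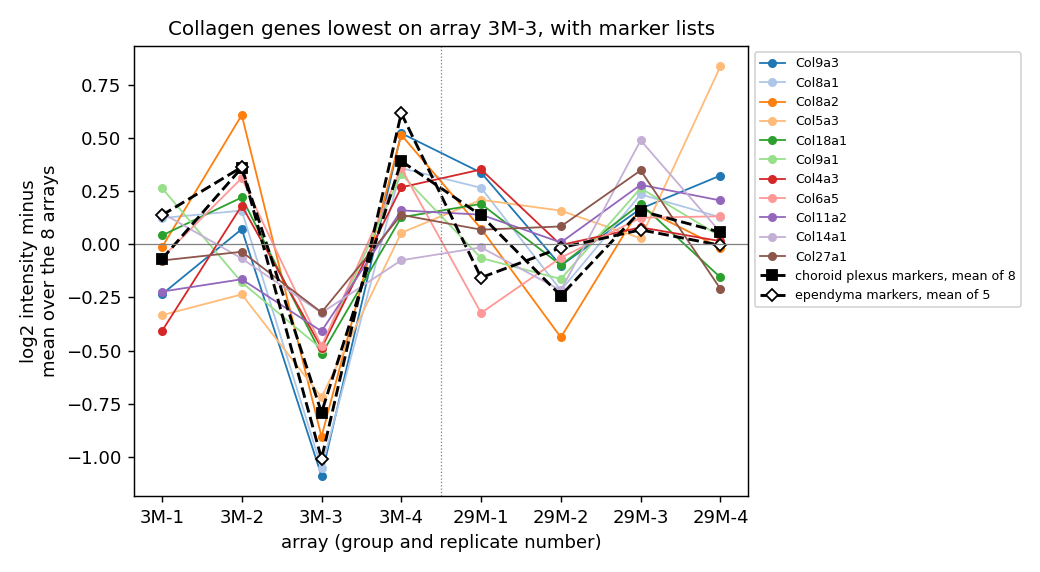
Log2 intensity minus the mean over the 8 arrays (vertical axis) for the 11 collagen genes whose lowest reading was on 3M-3, with the mean deviation of 8 choroid plexus and 5 ependyma markers measured on all arrays. The genes were chosen for that low reading, so the dip at 3M-3 is a description. Both marker lists are lowest on 3M-3, at -0.79 for choroid plexus and -1.01 for ependyma.

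The proteins that build and hold collagen were looked up as lists. The enzymes and chaperones that hydroxylate, glycosylate and fold new chains in the endoplasmic reticulum gave no call among 16 genes, with a median change of -0.03. The largest value was that of P4hb, the shared subunit of the prolyl hydroxylases, at 0.42 (SE 0.08, limma adjusted p = 0.0363), with separate groups but below the fold threshold. The most negative was that of P4ha1, a catalytic subunit, at -0.55 (SE 0.23, limma adjusted p = 0.265). P4ha1 read 10.65 on 29M-4, where the other aged samples read 11.57 to 11.70, the array on which type I and III chains were lowest too. Serpinh1, the chaperone particular to collagen, had a change of -0.12.

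Of 14 genes for export, trimming of the ends and cross-linking, 1 was called higher. Loxl4, a lysyl oxidase that links chains to each other, lay between 6.40 and 7.03 in 3M and between 7.21 and 7.67 in 29M. It rose by 0.61 (SE 0.15, limma adjusted p = 0.0962), a call that was made in 5 of 17 settings. Lox, the founding member of that family, had 0.53 (SE 0.14, limma adjusted p = 0.102) and missed the threshold. Without 3M-1, Lox (0.58) and Adamts2 (0.53), a protease that trims procollagen, passed both thresholds. The list's median was 0.07.

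The proteoglycans and other proteins that bind fibrils had the highest median of the collagen-related lists, 0.31 over 12 genes, with 11 positive values. Thbs2, a matrix protein that limits vessel growth, was the 1 call: it lay between 8.37 and 9.21 in 3M and between 9.31 and 9.64 in 29M, and rose by 0.70 (SE 0.17, limma adjusted p = 0.0802). It was called in 6 of 17 settings. Omd, Ogn and Fmod, small leucine-rich proteoglycans that coat fibrils, had values of 0.68, 0.67 and 0.63 with adjusted p of 0.214, 0.169 and 0.147 (limma), so they did not pass. Of the 12 genes, 8 were highest on 29M-3, the array with the highest fibroblast and meninges markers, and without it the list's median was 0.21. The part of these cells in the list was not tested.

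Laminins, nidogens, perlecan and agrin, the partners of type IV collagen, gave no call among 15 genes, with a median of 0.17 and 11 positive values. Without 29M-3 the median was 0.07. Lamb2, the laminin chain of mature vessels and synapses, lay between 10.91 and 11.04 in 3M and between 11.31 and 11.57 in 29M. Its change of 0.49 (SE 0.08, limma adjusted p = 0.0257) was just under the fold threshold, and it passed without 29M-4 (0.54) or without 3M-1 (0.52). The most negative value was that of Lamb1, -0.19. None of 9 receptors was called by its brightest probe, where Itgb1 had the highest value, 0.40, and Gp6 the lowest, -0.13. Without 29M-3, Itgb1 passed both thresholds (0.52, limma adjusted p = 0.0929).

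Lair1, an inhibitory collagen receptor of immune cells, had probes that disagreed. The brightest one changed by 0.21 (SE 0.11, limma adjusted p = 0.384). Another read 6.74, 6.61, 6.44 and 6.68 in 3M and 7.30, 7.53, 7.26 and 7.37 in 29M. That probe rose by 0.75 (SE 0.10, limma adjusted p = 0.00851), with the ages apart, and was called in all 17 settings. All 6 microglia markers had positive values, from 0.28 to 0.45, none of them called, and Aif1 passed both thresholds without 3M-1 (0.65). The mean level of the 5 measured on all arrays ranged from 13.36 to 13.69 in 3M and from 13.73 to 13.94 in 29M, all 6 were well above background on the arrays where they were measured, and their part in the Lair1 reading was not tested.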

How the data were processed

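Hippocampal RNA of 8 mice (4 of 3M, 4 of 29M) was hybridised with 1 colour to Agilent 4x44K arrays on 3 slides. The labels name polyA RNA and the methods total RNA as the material. Groups came from the sample titles. The authors deposited scanner intensities, not normalized between arrays, which per the file headers came from Feature Extraction 10.7.3.1. The software, scanner and design in the headers differ from those in the methods, and the headers were followed. The median spot intensity was used because the files held no mean. A deposited series table of intensities was not used: all 8 columns equalled the local background of an array (tolerance 0.001), in 7 cases of another sample. Some of these crossed the ages: columns 3M-2 and 3M-3 equalled arrays 29M-3 and 29M-4, and columns 29M-2 and 29M-3 equalled arrays 3M-4 and 3M-3. Ages here follow the sample title under which each scan was deposited. Which of the 2 assignments is right was not tested, and every change given rests on it.

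Control spots, and on each array 127 to 190 outlier spots, were not used. Variance stabilising normalization (own implementation in R 4.3.3, quantile 0.9, 7 iterations) gave generalized log2 values, which understate changes of dim probes. Spots of a probe were averaged, and limma 3.58.1 was fitted with age as the term to probes with at least 3 usable arrays per age, on all 8 arrays, with eBayes and Benjamini-Hochberg adjustment over 39408 probes. The script was tested on simulated data. Probes were named by accession through RefSeq genes of GRCm38.p6 (26055 of 39429, 66.1%). The arrays were designed on mm9, so no probe coordinates are given.

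Per-array values are given for called collagen genes, chains of types I, III and IV and uncalled genes with separate groups and a change of at least 0.5. Other members appear by range or count, with the extremes of each class. Called members of the pathway lists are named, or the extremes where none was called. Genes named outside this rule, and the 11 genes of one figure, were chosen after their values were seen. The members and lists were chosen with earlier results of these data known. Nothing says that samples were prepared independently beyond being separate mice, so p-values measure the spread between these samples. Alternatives were the processed signal with the 75th percentile, normexp (offset 50) with quantile normalization, variance stabilisation of the processed signal, outlier spots kept, bright probes only, slide as fixed or random block, replicate block, trend with robust prior, and each array left out. The mean of all probes and a call by any probe were tried for genes.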

Additional observations from a re-analysis of the deposited data

Results flagged for a closer look

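In 5 of 83 groups of 4 arrays, 1 reading of a collagen gene stood away from the other 3 by more than Dixon's 95% critical value for the gap divided by the range, and chance alone would give 4.15. Col8a1 was lowest on replicate 3 of 3M (9.60, others 10.78 to 11.02, ratio 0.834). Col6a1 was highest on replicate 3 of 29M (13.85, others 13.17 to 13.24, ratio 0.892). Col22a1 was highest on that same array (10.71, others 10.07 to 10.13, ratio 0.909). Col6a4 was highest on replicate 2 of 3M (8.70, others 8.30 to 8.36, ratio 0.851). Col6a6 was highest on replicate 4 of 29M (7.29, others 5.59 to 5.71, ratio 0.930), the 1 array of that age on which it was above background.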

How the results depend on the processing

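Of 127 recomputed counts and medians, 106 stayed near their value. Of 436 recomputed changes of named collagen genes, 391 were labelled the same. Another 17 turned their sign, all of them of genes without a call. For refits the same meant the same sign and the same call, whatever the size of the change. Within slides it meant a distance below the SD within an age, and turned signs of genes without a call were not counted. Col4a3, at 0.22 over all arrays, had -0.19 within slide 2, and Col23a1, at 0.37, had -0.26 within slide 1. With normexp and quantile normalization Col15a1 had 0.0066 and Col28a1 -0.012. With slide as a fixed block Col28a1 had -0.012, Col4a1 0.021 and Col4a6 0.0079. With each array left out in turn the changes ranged from -0.11 to 0.060 for Col15a1, from -0.096 to 0.15 for Col18a1, from -0.23 to 0.12 for Col1a2, from -0.078 to 0.074 for Col28a1, from -0.090 to 0.019 for Col4a1 and from -0.12 to 0.042 for Col4a6. The cause was not tested. Leaving out arrays gave 268 to 844 probes called higher and 131 to 624 called lower, the most of both without replicate 1 of 3M. Other arrays whose removal moved these counts by over 1.5 times were replicates 2 (268 and 131) and 3 (307 higher) of 3M and replicates 1 (269 and 139), 2 (282 and 166) and 4 (157 lower) of 29M. Collagen genes called higher ranged from 1 to 3, collagen genes called lower from 1 to 2, and collagen probes called higher from 1 to 3. The median change of collagen genes lay between -0.02 (within slide 2) and 0.10 over all settings.

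Same-numbered arrays of the ages do not pair: the deviations of 1 of 4 pairs correlated above 0.1 (range -0.24 to 0.21), and 2 of the 8 arrays correlated best with their own number. With the replicate number as a block, 266 probes were called higher and 145 lower, 2 collagen probes and 2 collagen genes (Col2a1 and Col5a3) higher, and 1 collagen gene (Col20a1) lower. Col7a1 was then not called (adjusted p = 0.176). Nor was it with slides fitted as fixed blocks (adjusted p = 0.107) or without replicate 1, 3 or 4 of 3M or replicate 1, 2 or 3 of 29M (changes from -0.54 to -0.46). As random blocks, slides left all 3 gene calls in place. With 4 arrays per age and values near background for 4 collagen genes, small changes could not be resolved.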
